A study of Homo sapiens and Mus musculus with 4 samples.

Results

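The genes described here encode the granzymes, perforin and the other proteins of the cytotoxic granule. They were chosen by gene symbol: GZMA, GZMB, GZMH, GZMK, GZMM, PRF1, GNLY, NKG7, SRGN and CST7 in human, and the mouse genes of the same symbol. This gave 10 of 32738 human genes and 8 of 27998 mouse genes, since GZMH and GNLY had no mouse gene of the same symbol. The series held bulk RNA-seq of 4 untreated lymphoid cell lines, with 1 library for each line. Jurkat is a human leukaemic T cell line that the study used as CD4 T cells. TALL104 is a human leukaemic line that the study used as CD8 T cells and kept in medium with interleukin 2, which the other lines did not receive. EL4 is a mouse lymphoma line used as CD4 T cells, and IVA12 is a mouse hybridoma, the fusion of a B cell with a myeloma, used as B cells. Each is a single tumour or fusion line from a cell repository, and the study described TALL104 as slow to grow and harder to keep viable. TALL104 was set against Jurkat and EL4 against IVA12, each pair sharing a species. With 1 library for each line there was no spread between replicates, no test was possible, and a difference was one between these libraries.

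The depth was recovered from the FPKM values (fragments per kilobase of gene, scaled to the reads of the library), and came to between 25286728 and 34783047 reads for each library. Every interval given is a 95% exact interval on the recovered reads and covers counting error only. Of the 7 T cell markers, all were at 1 FPKM or more in Jurkat, TALL104 and EL4, and 2 were in IVA12. CD8A was at 28.3 FPKM in TALL104 and 0.601 FPKM in Jurkat. CD8B went the other way, at 0.114 FPKM in TALL104 on 6 reads and 1.23 FPKM in Jurkat on 80 reads. CD4 was at 0.985 FPKM in Jurkat and 0.0308 FPKM in TALL104, and Cd4 was at 0.208 FPKM in EL4. Jurkat and EL4, which the study used as CD4 T cells, were thus under 1 FPKM for this gene. IVA12 held Jchain, Mzb1, Cd79b and Ms4a1 at 46.5 FPKM or more, while Cd79a was at 0.0543 FPKM.

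Cytotoxic lymphocytes kill by releasing the content of secretory granules onto a target cell. Perforin opens the membrane of the target, and granzymes, a family of serine proteases, enter and cleave proteins there. In the granule these basic proteins are packed onto serglycin, a proteoglycan, and granzymes are made as inactive precursors that cathepsin C trims. T cells that have not been activated hold few such granules, and B cells are not known for them.

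The granzymes share the fold of trypsin but cut after different residues. Granzymes A and K cut after basic residues, granzyme B after aspartate, granzyme H after bulky hydrophobic residues and granzyme M after methionine or leucine. The coding sequence around the catalytic serine is shown. It was sought in granzyme genes alone, so whether it sets them apart from other serine proteases was not tested. Each line runs 5′ to 3′ from 5 codons before the serine codon to 5 codons after it in the longest annotated coding transcript, and the capitals mark the serine codon of the Gly-Asp-Ser-Gly run.
GZMA: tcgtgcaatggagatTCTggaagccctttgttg
Gzma: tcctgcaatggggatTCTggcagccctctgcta
GZMB: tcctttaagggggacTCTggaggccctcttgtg
Gzmb: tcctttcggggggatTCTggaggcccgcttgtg
GZMH: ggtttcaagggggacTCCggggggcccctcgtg
GZMK: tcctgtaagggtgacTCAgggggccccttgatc
GZMM: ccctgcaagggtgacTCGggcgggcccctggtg
The serine was residue 212 in GZMA, 203 in GZMB, 202 in GZMH, 214 in GZMK and 207 in GZMM. GZMB and GZMH were the nearest pair of human granzymes, with 79.4% of 741 aligned coding bases identical. The other human pairs shared between 53.1% and 61.8%. Human and mouse genes of the same symbol shared between 73.2% (SRGN and Srgn) and 78.8% (CST7 and Cst7). No stretch of the length of a read was shared between GZMB and GZMH or between any human and mouse member. PRF1 shared 3.26% of its stretches of this length with PALD1, a gene on the opposite strand, and GZMK shared 28.2% with an antisense transcript that was not analysed here. The strand setting of the counting was not given in the sources used here.

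The granule protein genes were far higher in TALL104 than in Jurkat. All 10 were more than 1.5-fold higher in TALL104 on the scale of FPKM + 1, where 11.4% of all human genes were, and none was more than 1.5-fold higher in Jurkat, where 13.8% were. Past 10-fold, 7 of the 10 were higher in TALL104, against 0.938% of all human genes, and 0 were higher in Jurkat, against 0.571%. Among the 12214 human genes at 1 FPKM or more in either line, 28.4% were more than 1.5-fold and 2.51% more than 10-fold higher in TALL104. The median log2 ratio of FPKM + 1 over the 10 genes was 4.38, with a range of 1.63 to 5.58, and that over all 20550 human genes above 0 was -0.02. The 10 genes together came to 2388 FPKM in TALL104 and 67.5 FPKM in Jurkat, which was 0.946% and 0.0266% of the human FPKM. In bulk RNA, more cells that express a gene and more of its RNA in each cell cannot be told apart.

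**Figure D1:**
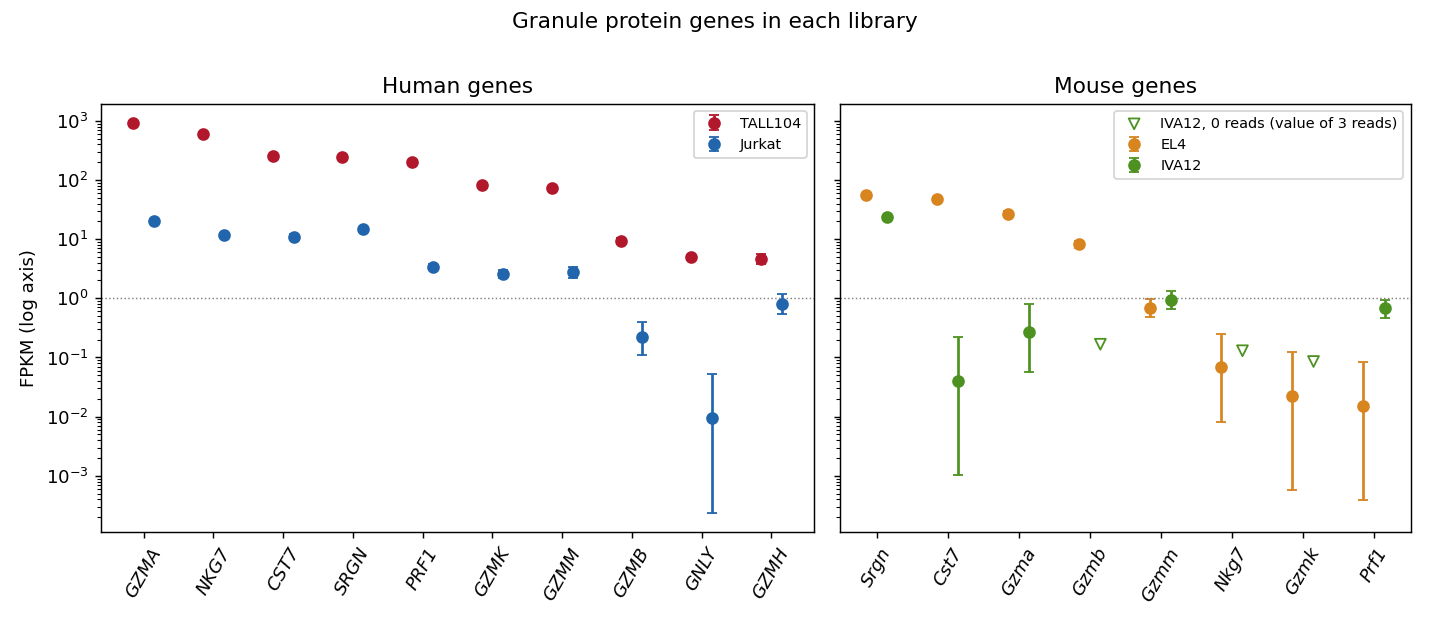
FPKM (log axis) of the 10 human genes in TALL104 and Jurkat and of the 8 mouse genes in EL4 and IVA12. Points are single libraries, bars are 95% exact Poisson intervals on the recovered reads, open triangles stand at the value of 3 reads for genes with 0 reads, and the dotted line marks 1 FPKM. Every human gene lies higher in TALL104, from 5.68-fold for GZMH, while in the mouse pair the lines part over Cst7, Gzma and Gzmb and stay under 1 FPKM for Gzmm, Nkg7, Gzmk and Prf1.

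Among the granzymes, GZMA was the most abundant in TALL104, Jurkat and EL4. GZMA was at 901.5 FPKM in TALL104 (889.8 to 913.2), rank 19 among the human genes of that library, and at 20.3 FPKM in Jurkat (18.7 to 21.9), which made it 44.5-fold higher in TALL104 (41.1 to 48.2). GZMK, encoded 68.1 kb from GZMA on chromosome 5, was at 83.1 FPKM in TALL104 and 2.58 FPKM in Jurkat, a ratio of 32.2 (27.2 to 38.4). GZMM, on chromosome 19, was at 74.1 FPKM in TALL104 and 2.78 FPKM in Jurkat, a ratio of 26.6 (21.6 to 33.2). These 3 genes were above 1 FPKM in both lines.

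GZMB and GZMH, the pair 21.3 kb apart on chromosome 14, were much lower. GZMB, the granzyme best known for starting caspase cleavage, was at 9.45 FPKM in TALL104 (8.52 to 10.4) and 0.225 FPKM in Jurkat (0.112 to 0.402), with 377 and 11 reads. Its ratio of 42.1 (23.2 to 85.0) had a counting interval that overlapped that of GZMA. GZMH was at 4.64 FPKM in TALL104 and 0.816 FPKM in Jurkat, and its ratio of 5.68 (3.72 to 8.96) was the lowest of the 10. In the library of TALL104, GZMA was 95.4 times GZMB in FPKM, and in Jurkat 90.2 times, while in EL4 Gzma was 3.32 times Gzmb.

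The granzymes summed to 1073 FPKM in TALL104 and 26.7 FPKM in Jurkat. GZMA made up 84.03% of the summed granzyme FPKM in TALL104 and 76.0% in Jurkat, GZMK 7.75% and 9.68%, and GZMM 6.91% and 10.4%. GZMB held 0.880% in TALL104 and 0.842% in Jurkat. In proportion to its size the share of GZMH differed most, at 0.432% in TALL104 and 3.06% in Jurkat. GZMB was above GZMH in TALL104 and below it in Jurkat. In EL4, Gzma held 75.3% and Gzmb 22.7%. The granzymes of IVA12 summed to 1.21 FPKM, of which Gzmm was 77.7%.

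**Figure D2:**
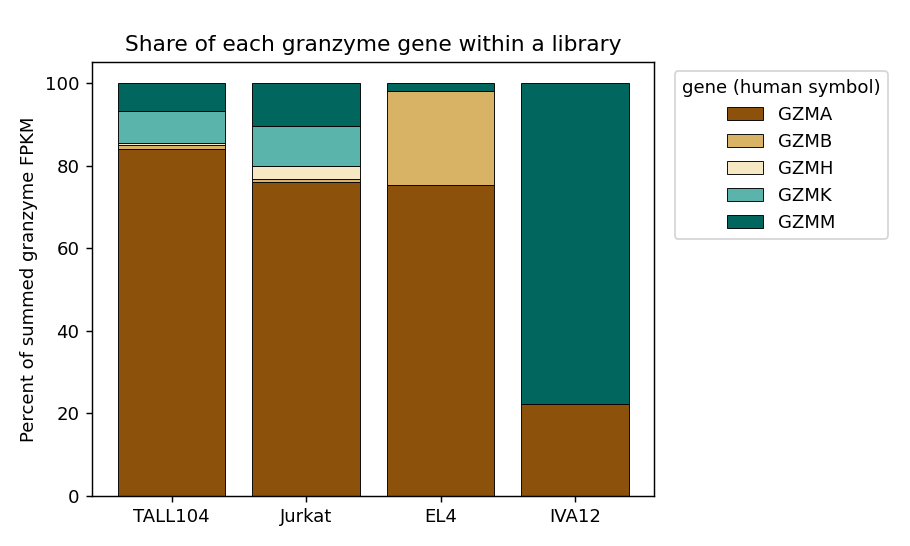
Percent of the summed granzyme FPKM held by each granzyme gene in the 4 libraries, with mouse genes drawn under the human symbol; GZMH has no mouse gene of the same symbol. GZMA or Gzma holds 84.03% in TALL104, 76.0% in Jurkat and 75.3% in EL4, Gzmb holds 22.7% in EL4, and the bar of IVA12 rests on a sum of only 1.21 FPKM.

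PRF1, which encodes the pore-forming perforin, was at 204 FPKM in TALL104 (201.0 to 207.6) and 3.35 FPKM in Jurkat (2.98 to 3.75). The ratio was 61.0 (54.4 to 68.7). PALD1, whose exons overlap 7.8% of the exon bases of PRF1 on the other strand, was at 2.455 FPKM in TALL104 and 6.13 FPKM in Jurkat, the opposite direction to PRF1, and its part in the low Jurkat value of PRF1 was not tested. In TALL104 perforin RNA was 21.6 times GZMB RNA in FPKM. GNLY, encoding the membrane-lytic antimicrobial protein granulysin, was at 4.97 FPKM in TALL104 (4.51 to 5.46) and rested on 1 read in Jurkat, where it was at 0.00942 FPKM. Its ratio of 528 therefore had an interval from 94.2 to 20890.

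The genes for granule matrix and membrane proteins were abundant in TALL104 and were present in Jurkat at more than 10 FPKM. NKG7, a membrane protein of the granule needed for efficient release, was at 605 FPKM in TALL104, rank 24 among human genes, and 11.6 FPKM in Jurkat, a ratio of 52.0 (47.0 to 57.8). SRGN, the serglycin core protein, was at 245 FPKM and 15.03 FPKM, a ratio of 16.3 (15.1 to 17.7). CST7, which encodes cystatin F, an inhibitor of the cathepsins that mature granzymes, was at 256 FPKM and 10.8 FPKM, a ratio of 23.7 (21.3 to 26.4).

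In both human lines GZMA came first and GZMH, GZMB and GNLY took the last 3 places, in a different order. Neighbours in the order of TALL104 were apart beyond their counting intervals except for CST7 and SRGN, and for GNLY and GZMH. In Jurkat, NKG7 and CST7 overlapped, as did PRF1 with GZMM and GZMM with GZMK. At 1 FPKM or more, 10 of 10 genes were found in TALL104 and 7 of 10 in Jurkat, where the share of all human genes was 33.1% and 33.2%. The Jurkat level of a member was between 0.190% (GNLY) and 17.6% (GZMH) of its TALL104 level, with a median of 2.74%. Among the 92 human genes at 200 FPKM or more in TALL104, leaving out mitochondrially encoded ones, KLRB1 had the third lowest percent in Jurkat and was chosen after the values were seen. It was at 590 FPKM in TALL104 and at 0.0168% of that level in Jurkat, with an upper limit of 0.0393%. Carry-over of reads between the libraries was not tested.

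In the mouse pair 4 of the 8 granule protein genes were higher in EL4, and the rest were under 1 FPKM in both lines. More than 1.5-fold higher in EL4 were 4 of 8, Srgn, Cst7, Gzma and Gzmb, where 9.75% of all mouse genes were, and 1 of 8, Prf1, was higher in IVA12, where 11.2% were. Past 10-fold, 2 of 8 were higher in EL4, Cst7 and Gzma, against 0.961% of all mouse genes, and 0 in IVA12, against 0.811%. Among the 10801 mouse genes at 1 FPKM or more in either line, 23.8% were more than 1.5-fold higher in EL4 and 26.5% in IVA12. The 4 members at that level were all higher in EL4, and Prf1 was not among them. The median log2 ratio of FPKM + 1, EL4 over IVA12, was 0.66, with a range of -0.72 to 5.56, beside -0.02 over the 16764 mouse genes above 0. At 1 FPKM or more were 4 of 8 genes in EL4 and 1 of 8 in IVA12, where the share of all mouse genes was 34.3% and 35%.

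EL4 held granzyme RNA but 1 read of perforin. Gzma was at 27.1 FPKM in EL4 (24.4 to 29.9) and 0.270 FPKM in IVA12, on 3 reads there, a ratio of 100.2 (34.0 to 488). Gzmb was at 8.16 FPKM in EL4 (7.03 to 9.42) and had 0 reads in IVA12, so it was at least 48.8-fold higher in EL4 when 3 reads were taken as the limit of the IVA12 library. Cst7 was at 48.1 FPKM in EL4 and rested on 1 read in IVA12, a ratio of 1199 (215 to 47410).

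Prf1 rested on 1 read in EL4, 0.0151 FPKM, and on 35 reads in IVA12, 0.674 FPKM (0.469 to 0.937). It was the single member higher in IVA12, by 44.5-fold (7.48 to 1807), though under 1 FPKM in both lines. On the scale of FPKM + 1 it was not past 2-fold, and with genes at 1 FPKM or more in either line alone it was left out, so that 0 members were then higher in IVA12. Nkg7 and Gzmk had 2 reads and 1 read in EL4 and none in IVA12, which gives no ratio. Gzmm, at 0.697 FPKM in EL4, had 0.940 FPKM in IVA12. The interval of this ratio, 0.814 to 2.24, included 1. For Gzma, Gzmb and Prf1 the recovered reads are the fewest that the values allow, so their intervals can be wider than the true depth would give, not narrower.

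Srgn was the most abundant member in both mouse lines. It was at 56.6 FPKM in EL4 (54.9 to 58.4) and 23.7 FPKM in IVA12 (22.4 to 25.0), a ratio of 2.39 (2.25 to 2.55). In IVA12, Srgn alone made up 92.5% of the members' FPKM, and the next gene, Gzmm, was 25.2 times lower. In EL4 the places below Gzmm, taken by Nkg7, Gzmk and Prf1, did not differ beyond counting error, and in IVA12 no adjacent pair below Srgn did.

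A gene beside GZMH and GZMB had the opposite direction. CTSG, the cathepsin G gene of myeloid granules, lies 30.2 kb from GZMH on chromosome 14, in the same cluster of serine protease genes. It was at 42.9 FPKM in Jurkat and 0.180 FPKM in TALL104, 239-fold higher in Jurkat (116 to 595), while GZMH and GZMB were higher in TALL104. Of the 6 human serine protease genes listed for the granzyme loci, 0 were more than 1.5-fold higher in TALL104, against 11.4% of all human genes, and 2 were in Jurkat, against 13.8%. These 2 were CTSG and CFD, the complement factor D gene, at 3.42 FPKM in Jurkat and 0.971 FPKM in TALL104. The other 4, CMA1, AZU1, PRTN3 and ELANE, had 8 reads or fewer in each line, which gives no usable comparison, and the nearest of the chromosome 19 genes, AZU1, lies 275.2 kb from GZMM. Of the 6 further rodent granzymes, Gzmc to Gzmg and Gzmn, which lie beside Gzmb on mouse chromosome 14, Gzmd and Gzme had 1 read each in EL4 and the others had none in either line. No mouse serine protease of the list reached 1 FPKM.

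**Figure D3:**
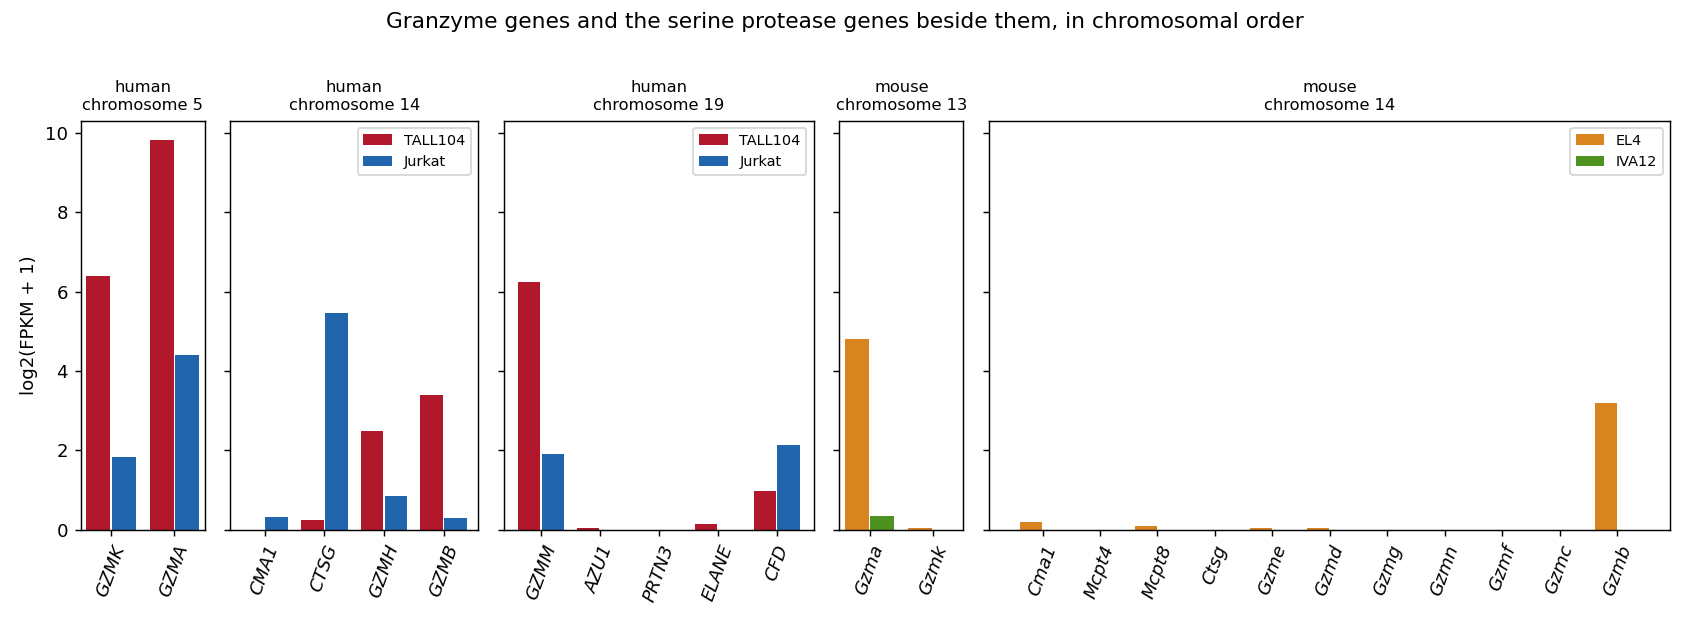
Level of the granzyme genes and of the serine protease genes beside them as log2(FPKM + 1), in chromosomal order and not spaced to scale, for TALL104 and Jurkat at 3 human loci and for EL4 and IVA12 at 2 mouse loci. On human chromosome 14 CTSG is high in Jurkat (42.9 FPKM) while GZMH and GZMB are higher in TALL104, and on mouse chromosome 14 Gzmb (8.16 FPKM in EL4) stands alone among genes near 0.

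GZMA, GZMB, PRF1 and NKG7 were each at least 42.1-fold higher in TALL104. So was GNLY, at 528-fold with 1 read in Jurkat, but its promoter and that of GZMH are not printed. A shared control of these genes was not tested. The promoters shown are those of GZMA, GZMB, PRF1 and NKG7. They are RefSeq promoters of 250 bases before to 50 bases after the transcript start (table build GRCh38.p14), each found once in the GRCh37 genome, at chr5:54398224-54398523 on the plus strand, and at chr14:25103347-25103646, chr10:72362448-72362747 and chr19:51875859-51876158 on the minus strand. Capitals mark matches, on either strand, to short motifs of factors active in lymphocytes. The motif searched for RUNX factors was TGTGGT. For the T-box factors, such as T-bet and eomesodermin, it was AGGTGT. For the STAT factors it was TTCNNNGAA, where N is any base. For the AP-1 family of leucine zipper factors it was TGANTCA. For the ETS family of factors it was AGGAAG. For the cyclic AMP response factor CREB it was TGACGTCA. The letters of the core promoter element, TATAAA, were read on the strand of the gene alone. Matches of different motifs did not overlap each other in the promoters shown.
GZMA: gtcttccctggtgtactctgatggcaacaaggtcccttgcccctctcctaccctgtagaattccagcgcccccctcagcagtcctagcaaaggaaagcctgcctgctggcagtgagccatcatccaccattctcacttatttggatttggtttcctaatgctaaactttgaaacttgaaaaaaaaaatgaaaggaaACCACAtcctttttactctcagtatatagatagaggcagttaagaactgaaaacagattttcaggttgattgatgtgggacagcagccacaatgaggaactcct
GZMB: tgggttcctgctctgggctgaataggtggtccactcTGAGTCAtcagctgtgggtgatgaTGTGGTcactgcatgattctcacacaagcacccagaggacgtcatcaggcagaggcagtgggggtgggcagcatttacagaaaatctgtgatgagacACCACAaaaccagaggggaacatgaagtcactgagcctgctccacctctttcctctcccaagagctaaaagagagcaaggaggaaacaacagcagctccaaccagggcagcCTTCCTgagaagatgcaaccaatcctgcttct
PRF1: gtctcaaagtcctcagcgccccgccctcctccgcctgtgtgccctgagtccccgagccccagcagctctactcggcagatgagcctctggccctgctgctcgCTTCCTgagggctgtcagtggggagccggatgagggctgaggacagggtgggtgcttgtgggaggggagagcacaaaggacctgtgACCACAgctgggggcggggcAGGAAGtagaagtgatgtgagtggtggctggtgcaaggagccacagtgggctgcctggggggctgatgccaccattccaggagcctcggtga
NKG7: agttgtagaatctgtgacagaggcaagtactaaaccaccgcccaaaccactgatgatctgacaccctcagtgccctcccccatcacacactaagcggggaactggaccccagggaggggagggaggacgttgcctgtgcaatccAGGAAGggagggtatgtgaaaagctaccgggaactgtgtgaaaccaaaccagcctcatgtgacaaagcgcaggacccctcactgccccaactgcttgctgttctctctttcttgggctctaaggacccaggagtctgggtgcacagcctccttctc
Of the 10 human members 6 had a promoter in the table, namely these 4, GZMH and GNLY. The RUNX motif was found in 4 of the 6, GZMA, GZMB, PRF1 and GNLY, and in 13.1% of all 35116 promoters. The ETS motif was found in 3 of 6, GZMB, PRF1 and NKG7, and in 33.6% of all promoters. The AP-1 motif was found in GZMB, and in 7.71% of all promoters. No member held the T-box, STAT, CREB or TATAAA letters in this window, which 11.4%, 7.66%, 1.85% and 7.33% of all promoters held. The motifs began 54 bases before the start in GZMA and 62 bases before it in PRF1 and GNLY for RUNX, and GZMB held the RUNX motif at 93 and 190 bases before its start. None of the motifs was found in GZMH. A match is of letters alone, and binding was not measured.

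The genes of proteins that assemble, move and release granules were mostly higher in TALL104. Of 20 human genes of this list 13 were more than 1.5-fold higher in TALL104 and 0 in Jurkat, with a median log2 ratio of 1.38. The shares of all human genes were 11.4% and 13.8%, and among those at 1 FPKM or more in either line 28.4% and 34.2%. VAMP8, a vesicle fusion protein, was at 60.6 FPKM in TALL104 and 0.145 FPKM in Jurkat, 418-fold (179 to 1288). SYTL3, which ties vesicles to Rab27, was at 65.2 and 0.299 FPKM, 218-fold (152 to 326). CTSW, a cathepsin of cytotoxic lymphocytes, was at 119.7 and 16.2 FPKM, 7.40-fold (6.91 to 7.93).

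In the mouse pair this list did not lean as one. Of the 19 mouse genes matched, 8 were higher in EL4 and 3 in IVA12, with a median of 0.18. The shares of all mouse genes were 9.75% and 11.2%, and among those at 1 FPKM or more in either line 23.8% and 26.5%. Stx11, whose product acts in the last step of release, was at 7.95 FPKM in EL4 and 0.132 FPKM in IVA12. Vamp8 went the other way, with 1 read in EL4 and 9.22 FPKM in IVA12. Ctsc, encoding the cathepsin C that activates granzymes, had 0 reads in EL4 and 818 reads, 5.57 FPKM, in IVA12, so it was at least 347-fold higher in the line that held almost no granzyme RNA.

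Of 4 human serpins that inhibit granule proteases, 3 were more than 1.5-fold higher in TALL104 and 0 in Jurkat. The shares of all human genes were 11.4% and 13.8%. SERPINB1, an inhibitor of chymotrypsin-like and elastase-like proteases, was at 20.7 FPKM in TALL104 and on 1 read in Jurkat, SERPINB6 was at 2.93 FPKM and on 1 read, and SERPINB9, the inhibitor of granzyme B, was at 4.00 and 1.31 FPKM. Of 6 mouse serpins, 3 were higher in EL4 and 1 in IVA12, against 9.75% and 11.2% of all mouse genes. Among the 3 serpins at 1 FPKM or more in either line, 2 were higher in EL4 and 1 in IVA12. The shares of mouse genes at that level were 23.8% and 26.5%. Serpinb6b, at 0.905 FPKM on 8 reads in EL4 and 0 reads in IVA12, was not among these 3. Serpinb9b and Serpina3n had 0 reads in both lines. Serpinb1a was at 348 FPKM in EL4 and 1.57 FPKM in IVA12, 222-fold (177 to 281), and Serpinb9 at 4.83 and 0.0566 FPKM, 85.4-fold (36.4 to 264). Serpinb6a was higher in IVA12, at 1.002 FPKM against 0.184 FPKM.

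The genes of proteins that granzymes cut, which have other roles in every cell, were mostly higher in Jurkat. Of 14 human substrates 12 were more than 1.5-fold higher in Jurkat and 0 in TALL104, with a median log2 ratio of -1.47. The shares of all human genes were 13.8% and 11.4%, and among those at 1 FPKM or more in either line 34.2% and 28.4%. LMNB1, a nuclear lamina protein, was at 126 FPKM in Jurkat and 21.04 FPKM in TALL104, 5.99-fold (5.73 to 6.27). NME1, a nucleoside diphosphate kinase, was at 16.4 and 2.35 FPKM, and HMGB2, a chromatin protein, at 209 and 54.8 FPKM. Of the 14 mouse substrates 3 were higher in EL4 and 2 in IVA12, where 9.75% and 11.2% of all mouse genes were. Among mouse genes at 1 FPKM or more in either line the shares were 23.8% and 26.5%, which the list did not exceed. Apex1, a DNA repair enzyme, was higher in IVA12, at 169.9 FPKM against 48.8 FPKM in EL4, as was Nme1, at 45.6 against 21.1 FPKM.

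Of 8 human transcription factors known from cytotoxic lymphocytes, 7 were higher in TALL104 and 0 in Jurkat, with a median log2 ratio of 3.26. The shares of all human genes were 11.4% and 13.8%. ID2 was at 126 FPKM in TALL104 and 2.46 FPKM in Jurkat, STAT4 at 66.6 and 2.45 FPKM, and TBX21, encoding T-bet, at 23.7 and 0.330 FPKM. In mouse, 3 of 8 were higher in EL4 and 1 in IVA12, against 9.75% and 11.2% of all mouse genes. Among the 3 factors at 1 FPKM or more in either line, 2 were higher in EL4 and 1 in IVA12. The shares of mouse genes at that level were 23.8% and 26.5%. Tbx21, at 0.613 FPKM in EL4 and 0 reads in IVA12, was not among these 3. Id2 was higher in EL4, at 30.8 against 1.46 FPKM, as was Runx3, at 14.1 against 1.86 FPKM. Prdm1, also a factor of antibody-secreting cells, was at 18.9 FPKM in IVA12 and 0.300 FPKM in EL4. Of 11 human genes that build the chondroitin sulphate chains of serglycin, 6 were higher in TALL104 and 2 in Jurkat. The shares were 11.4% and 13.8% of all human genes, or 28.4% and 34.2% at 1 FPKM or more in either line. XYLT1, which places the first sugar, was at 22.1 and 1.13 FPKM, CSGALNACT1 at 1.85 and 0.0961 FPKM and CHPF at 6.42 and 2.02 FPKM. In mouse, 2 of 11 were higher in EL4 and 2 in IVA12. The shares of mouse genes were 9.75% and 11.2%, or 23.8% and 26.5% of those at 1 FPKM or more in either line. Xylt1 was at 2.32 FPKM in EL4 with 0 reads in IVA12, B4galt7 at 5.94 and 2.01 FPKM, and B3galt6 at 1.31 and 5.91 FPKM.

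**Figure D4:**
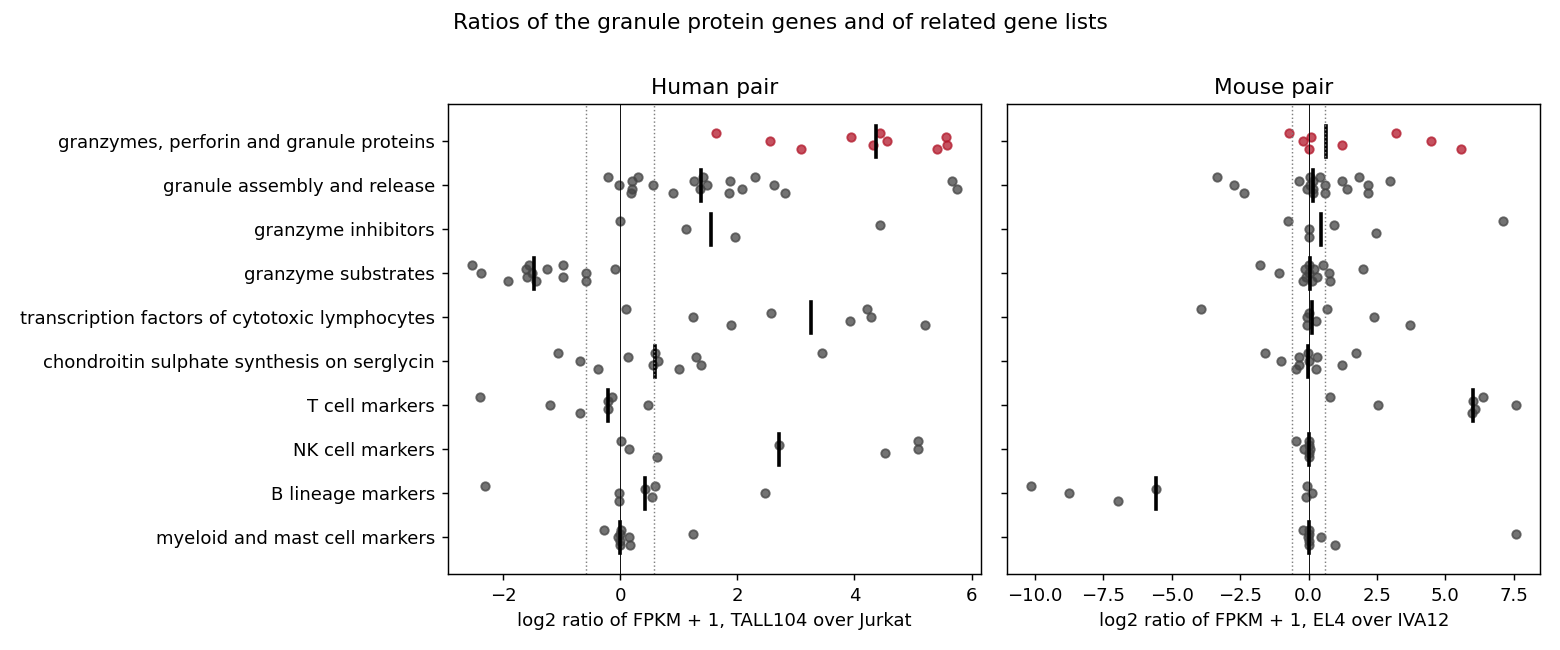
Log2 ratio of FPKM + 1 for each gene of the granule protein set (red) and of 9 related lists (grey), TALL104 over Jurkat on the left and EL4 over IVA12 on the right. Each point is a gene, black bars are medians and dotted lines mark 1.5-fold. The 10 human granule genes lie at 1.63 or above, around a median of 4.38, the granzyme substrates lie below 0 in the human pair, and the 8 mouse granule genes run from -0.72 to 5.56.

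Of 7 human NK cell markers 5 were higher in TALL104 and 0 in Jurkat, and they summed to 96.4 FPKM in TALL104 and 0.208 FPKM in Jurkat. Of all human genes 11.4% were higher in TALL104 and 13.8% in Jurkat. NCR1 was at 33.5 FPKM, TYROBP at 34.0 FPKM and NCAM1 at 22.4 FPKM in TALL104, while FCGR3A, at 0.0237 FPKM, and KLRF1, at 0.112 FPKM, were near 0. Of 7 human T cell markers 0 were more than 1.5-fold higher in TALL104 and 3 in Jurkat. These were CD2, at 15.6 FPKM in TALL104 against 86.0 FPKM in Jurkat, CD5, at 12.5 against 29.9 FPKM, and CD3D, at 249.8 against 400.1 FPKM. Of human genes at 1 FPKM or more in either line, 28.4% were higher in TALL104 and 34.2% in Jurkat. Scaled by the median ratio, or by totals without mitochondrially encoded genes, 1 T cell marker was higher in TALL104 and 2 in Jurkat. In mouse, no NK marker reached 1 FPKM in either line.

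Of the 9 myeloid and mast cell markers, 1 was higher in TALL104, ITGAM at 1.47 FPKM, and 2 were higher in EL4, Lyz2 at 1.16 FPKM and Cpa3. The shares of all genes were 11.4% for TALL104 and 9.75% for EL4. Cpa3, the carboxypeptidase of mast cell granules, which binds serglycin, was at 199 FPKM in EL4 and 0.0521 FPKM in IVA12, while Tpsab1, Fcer1a and Ms4a2 had 0 reads in EL4. The part of other cells in the granule gene levels of EL4 was not tested. The 7 mouse T cell markers were all higher in EL4, led by Cd3d at 197 FPKM against 1 read, Cd3g at 176 against 1.15 FPKM and Cd5 at 75.3 against 0.134 FPKM. The 7 B lineage markers summed to 1999 FPKM in IVA12 and 0.873 FPKM in EL4, with Jchain at 1289 FPKM in IVA12. In the human pair CD79B was higher in TALL104, at 4.8 and 0.0415 FPKM, MZB1 was higher in Jurkat, at 47.7 and 8.88 FPKM, and CD79A was at 24.6 FPKM in TALL104 and 16.6 FPKM in Jurkat.

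The genes whose levels over the 4 lines were most like those of GZMB, PRF1 and NKG7 were sought among 15550 symbols that both species share, by Euclidean distance of log2(FPKM + 1). Nearest to GZMB were CD200R1, at a distance of 0.46, STX11 at 0.64 and DUSP4 at 0.68. All 3 were under 1 FPKM in Jurkat and IVA12 and between 6.45 and 11.3 FPKM in TALL104 and EL4. Nearest to PRF1 were SLFN5, at 1.44, GZMK at 1.51 and GZMM at 1.65. Nearest to NKG7 were IFITM1, at 1.08, SLFN5 at 2.26 and PRF1 at 2.32. These distances rest on 4 libraries of different species and are descriptions.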

How the data were processed

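Bulk RNA of the 4 lines was sequenced by the study as paired reads from stranded mRNA libraries, aligned with STAR 2.5.1b to a combined hg19 and mm10 reference of Cell Ranger 1.2.0 and counted with featureCounts 1.6.3. The deposited values are FPKM, made by the authors per gene and library; the gene lengths, strand and multi-mapping settings were not given in the sources used here. Whole reads were recovered as the smallest fraction within a relative tolerance of 1e-12 of each FPKM value times the library total, itself solved from the low values (100% of values above 0). Ratios used FPKM + 1; a gene counted as higher past 1.5-fold or 10-fold. Intervals were exact Poisson, or exact binomial for ratios; ratios against 0 took 3 reads per library as the floor. Positions and coding sequences came from GENCODE 44 (lifted to GRCh37) and M21. The genes and lists were chosen with earlier results of these data known. All members were named, as were the 3 nearest genes of GZMB, PRF1 and NKG7. So were the 3 genes of each list with the largest ratio among those at 1 FPKM or more in either line. The genes of the label checks, PALD1, KLRB1 and genes under 1 FPKM were named after their values were seen. Some genes that this rule names are not reported here. Scripts (Python 3.11.15, SciPy 1.17.1, Biopython 1.88) were tested on simulated data. Other pseudocounts, scalings, filters and thresholds were tried. The read ratios without a pseudocount and the KLRB1 limit were chosen after seeing the data.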

Additional observations from a re-analysis of the deposited data

Results flagged for a closer look

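Reads were also assigned to granule genes of the species that a line does not come from. The EL4 library held 17 reads on 6 of the 10 human genes and the IVA12 library held 22 reads on 9 of them, with at most 5 and 8 reads on a gene. The mouse genes held 0 reads in Jurkat and 1 read in TALL104. These reads lie outside the comparisons and were set against no control library.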

How the results depend on the processing

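No paired analysis was possible because each line has 1 library. With a pseudocount of 0.1 FPKM the median log2 ratio of the members came to 4.92 for the human lines and 1.0 for the mouse lines. With genes at 1 FPKM or more in either line alone, the mouse median was 3.83, over 4 genes, and 0 members were higher in IVA12; this filter removes Prf1. Past 2-fold, 0 members were higher in IVA12. At a minimum of 5 FPKM, 4 members were found in Jurkat, and at 0.1 FPKM 4 in IVA12. The other 45 counts and medians stayed within their limits under the alternatives, and no result turned its direction. Of the list counts 3 moved and 97 did not, and of the members' log2 ratios 12 moved, all with the smaller pseudocount, and 42 did not. The cell type marker lists were not among these list counts. The counts over all genes also moved. With the pseudocount of 0.1 FPKM, genes past 1.5-fold went from 3739 to 5658 for TALL104, from 4532 to 6833 for Jurkat and from 3138 to 4932 for IVA12, and genes past 10-fold from 307 to 833 for TALL104 (members 7 to 9), 187 to 897 for Jurkat, 269 to 744 for EL4 (members 2 to 3) and 227 to 883 for IVA12. Past 2-fold there were 2275 genes for TALL104, 2747 for Jurkat, 1654 for EL4 and 1766 for IVA12, against 2730 for EL4 past 1.5-fold. The median ratio of genes at 1 FPKM or more in both lines was -0.11 (log2) for TALL104 over Jurkat and -0.02 for EL4 over IVA12; scaled by it, the human median of the members was 4.49. Nkg7 and Gzmk, with 2 reads or fewer in either mouse line, have no ratio at this depth.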
